A study of Homo sapiens with 6 samples.

Results

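The antisense RNAs described here are the genes whose name ends in -AS1, which marks an RNA transcribed from the strand opposite to the gene named before the suffix. They were chosen by level, as those with a mean of at least 1 FPKM (fragments scaled to the length of the gene and to the library's total) over all 6 samples. Of 58174 genes in the series, 1092 carry such a name, 267 of these reached that mean, and 291 are listed at 0 in every sample. The gene named before the suffix, called the sense gene below, was found by name for 264 of the 267. Of these, 224 sense genes also reached a mean of 1 FPKM and were tested, and 40 did not. No sense gene was listed under the name before the suffix for HOXC-AS1, RPARP-AS1 and JHDM1D-AS1. By an older symbol JHDM1D-AS1 matches KDM7A, a pair not counted below.

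Antisense RNAs are a large class of long non-coding transcripts. Many start at the promoter of their sense gene and run away from it, head to head, while others lie inside it or cross its far end. Most are spliced and polyadenylated but held at low levels by early termination and by the nuclear exosome, an RNA-degrading complex. Some are known to act on their sense gene at the same locus, others act elsewhere as RNAs, and for most no function is established.

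RNA was taken from cells labelled Huh-7, the name of a widely used human liver cancer line. A group of 3 samples was transfected with miR-27a-3p mimics, synthetic double-stranded RNAs that imitate this mature microRNA, and a group of 3 with a negative control (NC). Both groups received a lipid transfection reagent, and their RNA was taken 48 h later with Trizol from trypsin-digested cells. The labels name no other agent or genetic change, and do not tell separate cultures from repeats of 1 culture, so the p-values may reflect technical spread alone. Genes that define the hepatocyte lineage were nearly absent: ALB, AFP, APOA1, APOB, TTR, FGB and GPC3 stayed below 0.05 FPKM in every sample. The other 3 hepatocyte genes listed were low, with SERPINA1 at most 1.49 FPKM, TF at most 0.33 FPKM and HNF4A at most 0.98 FPKM. Of 3 cholangiocyte genes, the keratin KRT7 lay between 199.7 and 397.8 FPKM, SOX9 reached at most 0.069 FPKM and CFTR 2.94 FPKM.

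Facts of the libraries that touch all results below are these. Genes with at least 1 FPKM numbered 15109 to 15494 in the control samples and 13007 to 13250 in the mimic samples. The mitochondrially encoded share of all FPKM ran from 14.6% to 38.9% and was highest in sample 3 of each group. If the most frequent low value of a sample stood for 1 fragment, there would be about 17100000 to 21300000 fragments in the control samples. In the mimic samples there would be 25400000 to 31300000. Only 9.55% to 12.7% of low values were whole multiples of that value within 1%, so these depths are not established. Median-of-ratios scaling, which sets the typical gene to no change, moved the median over the 14439 tested genes on the log2 scale from -0.29 to 0.01, and calls are therefore given on both scales. The part of these library differences in the results was not tested.

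The sequence of the microRNA is shown because its seed, bases 2 to 8, is what pairs with target RNAs. The seed is in capitals, 5′ to 3′, from RefSeq.
hsa-miR-27a-3p: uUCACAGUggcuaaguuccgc
A match to the whole seed (ACTGTGA) was present in at least 1 annotated GENCODE 29 transcript of 70 of the 266 antisense RNAs with such a transcript. In 20 of these the match was followed by A (ACTGTGAA). Of those 20, 12 were called lower and none higher, and their median was -0.70 on the log2 scale. Of the 50 with the shorter match alone, 41 were called lower and none higher, with a median of -0.91. Of the 196 with no match, 134 were called lower and 9 higher, with a median of -0.84. The median summed exon length was 5288, 4194 and 2182 bases in the 3 classes, so the classes also differ in length. Such classes are not given for all tested genes, and whether a match goes with the change was not tested.

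Promoters were looked at because the antisense RNAs, as described below, moved together. RefSeq gives a promoter window of 300 bases (250 before and 50 after the start) for 181 of the 267. Their median GC content was 65% and their median number of CpG dinucleotides was 25, against 58.7% and 14 over all 35116 windows. Those 35116 windows were not filtered by level in these cells, as the antisense RNAs were. The sets are thus not matched for level, and a contrast between them cannot be assigned to antisense RNAs as a class. The motifs below were searched on both strands, with overlapping matches counted. The GC box (GGGCGG) was in 62.4% of the antisense windows and 45.0% of all windows, and the TATA box (TATAAA) in 4.42% and 11.5%. The CCAAT box (CCAAT) was in 35.4% and 34.6%, the ETS core (CCGGAAG) in 14.9% and 10.3%, the AP-1 site (TGANTCA) in 4.42% and 7.71%, and the cAMP response element (TGACGTCA) in 4.42% and 1.85%. Among the 121 windows of antisense RNAs called lower the GC box was in 60.3%, and among the other 60 in 66.7%. The CCAAT box was in 31.4% and 43.3% of these, and the TATA box in 2.48% and 8.33%. These matches describe the letters only.

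Stretches of 7 windows are printed for the antisense RNAs with an abundant transcript, the largest changes or a sense gene that moved the other way. They read 5′ to 3′ on the strand of the antisense RNA (RefSeq, GRCh38.p14) and leave out bases annotated as untranslated or coding. Motif matches on either strand are in capitals. They are chr15:41283853-41284012 on the plus strand (OIP5-AS1), chr10:1022523-1022682 plus (IDI2-AS1), chr10:86971191-86971350 minus (ADIRF-AS1), chr13:51453235-51453394 plus (INTS6-AS1), chr17:14069409-14069495 minus (COX10-AS1), chr12:109773438-109773597 minus (FAM222A-AS1) and chr20:35278130-35278289 minus (MMP24-AS1).
OIP5-AS1: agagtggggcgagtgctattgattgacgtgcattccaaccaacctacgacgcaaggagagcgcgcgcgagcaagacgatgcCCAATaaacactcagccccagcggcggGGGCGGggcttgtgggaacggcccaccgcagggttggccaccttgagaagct
IDI2-AS1: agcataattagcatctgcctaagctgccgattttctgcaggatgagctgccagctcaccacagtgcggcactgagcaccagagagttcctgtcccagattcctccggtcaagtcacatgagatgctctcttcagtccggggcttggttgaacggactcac
ADIRF-AS1: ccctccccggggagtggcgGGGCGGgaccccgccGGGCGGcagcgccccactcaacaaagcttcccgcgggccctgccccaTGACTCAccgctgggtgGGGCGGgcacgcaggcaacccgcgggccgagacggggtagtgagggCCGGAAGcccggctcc
INTS6-AS1: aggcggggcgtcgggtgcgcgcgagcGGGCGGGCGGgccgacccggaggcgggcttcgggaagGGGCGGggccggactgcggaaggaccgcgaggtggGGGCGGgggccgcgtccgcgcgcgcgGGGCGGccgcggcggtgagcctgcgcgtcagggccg
COX10-AS1: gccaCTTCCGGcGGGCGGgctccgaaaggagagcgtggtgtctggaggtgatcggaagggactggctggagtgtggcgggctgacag
FAM222A-AS1: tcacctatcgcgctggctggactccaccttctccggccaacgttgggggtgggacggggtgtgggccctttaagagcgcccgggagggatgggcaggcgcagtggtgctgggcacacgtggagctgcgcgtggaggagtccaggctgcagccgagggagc
MMP24-AS1: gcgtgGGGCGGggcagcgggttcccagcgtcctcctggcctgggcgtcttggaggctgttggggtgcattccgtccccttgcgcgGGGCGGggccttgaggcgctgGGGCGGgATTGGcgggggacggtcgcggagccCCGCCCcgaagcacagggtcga
The stretch of ADIRF-AS1, which fell, holds 5 matches, to the GC box, the ETS core and the AP-1 site. That of MMP24-AS1, which rose, also holds 5, to the GC box and the CCAAT box. The stretches of IDI2-AS1, which fell, and FAM222A-AS1, which rose, hold none. These few stretches were picked by the size of the change, and any link of motifs to the change was not tested.

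Most antisense RNAs were lower in the mimic samples. By limma on log2(FPKM + 0.5), with Benjamini-Hochberg adjusted p under 0.05 over all 14439 tested genes, 188 of the 267 were called lower, 9 higher and 70 were not called. The background was 39.6% of all tested genes called lower and 12.0% called higher. The median log2 fold change (mimic against control) was -0.85 for the antisense RNAs and -0.29 for all tested genes, and 246 of 267 had a negative value. The 3 control and 3 mimic values did not overlap in 207 of the 267, against 60.5% of all tested genes.

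The excess of lower calls over all tested genes was present on each scale and its size depended on the scale. After median-of-ratios scaling, 148 antisense RNAs were called lower and 14 higher, against a background of 27.4% lower and 26.9% higher, with a median of -0.59. After quantile normalization, 104 were called lower and 25 higher, against 22.8% lower and 24.9% higher, with a median of -0.30.

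**Figure D1:**
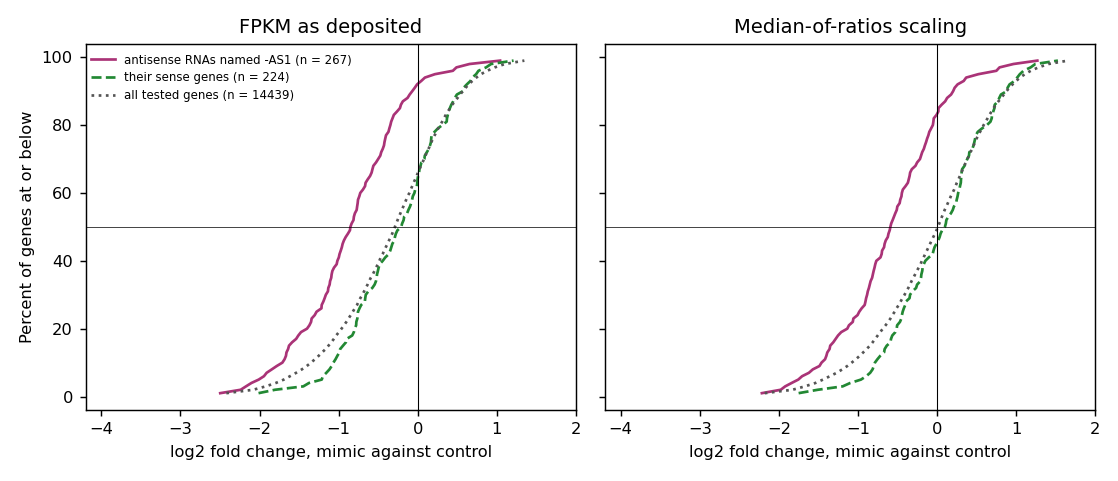
Cumulative distribution of log2 fold changes (mimic against control, x axis) as percent of genes at or below each value (y axis), for the 267 antisense RNAs, the 224 tested sense genes and all 14439 tested genes, on the deposited scale (left) and after median-of-ratios scaling (right). The curve of the antisense RNAs lies to the left of the others in both panels, with medians of -0.85 and -0.59, and that of the sense genes runs close to all genes.

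The antisense RNAs are low, with a median of 3.63 FPKM against 11.1 FPKM for tested protein-coding genes, so genes of like level were set side by side. Of the antisense RNAs with a mean of 1 to 2 FPKM, 64.5% were called lower, against 50.3% of the protein-coding genes in that range. The shares were 69.9% against 44.4% at 2 to 5 FPKM, 78.8% against 36.6% at 5 to 10 FPKM, and 69.0% against 24.7% at 10 FPKM or more. The distance between the classes was smallest in the lowest band and largest in the highest band. It was present in all 4 bands after median-of-ratios scaling as well, from 48.7% against 35.6% to 59.5% against 14.6%. After quantile normalization it was small in the lowest band, with 12 of 76 antisense RNAs and 121 of 911 protein-coding genes called lower. Only protein-coding genes were compared by level. At all levels 3778 of 11571 protein-coding genes were called lower, against 5718 of all 14439 tested genes. After median-of-ratios scaling these numbers were 2358 and 3953. On both scales most of the tested genes outside the protein-coding class were thus called lower too. A high share of lower calls was therefore not particular to the antisense RNAs. Whether their share differs from that of other non-coding genes was not tested.

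The rule on the mean bears on these counts, since an RNA can pass it through 1 group alone. Of the 267, 209 had a mean of at least 1 FPKM in both groups, and of these 137 were called lower and 7 higher, with a median of -0.77. A further 56 passed through the control group only, and 51 of them were called lower. Those 51 include IDI2-AS1, INTS6-AS1, RRM1-AS1 and GATA6-AS1, described below, whose falls the rule favoured. FAM222A-AS1 and WNT5A-AS1 passed through the mimic group only, and both were called higher. Just above the limit, GAS5-AS1 had a mean of 1.00 FPKM, LCMT1-AS1 1.00 FPKM and RTCA-AS1 1.02 FPKM. Just below it, ARRDC3-AS1 had 0.9998 FPKM, SAP30L-AS1 0.994 FPKM and MATN1-AS1 0.993 FPKM.

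**Figure D2:**
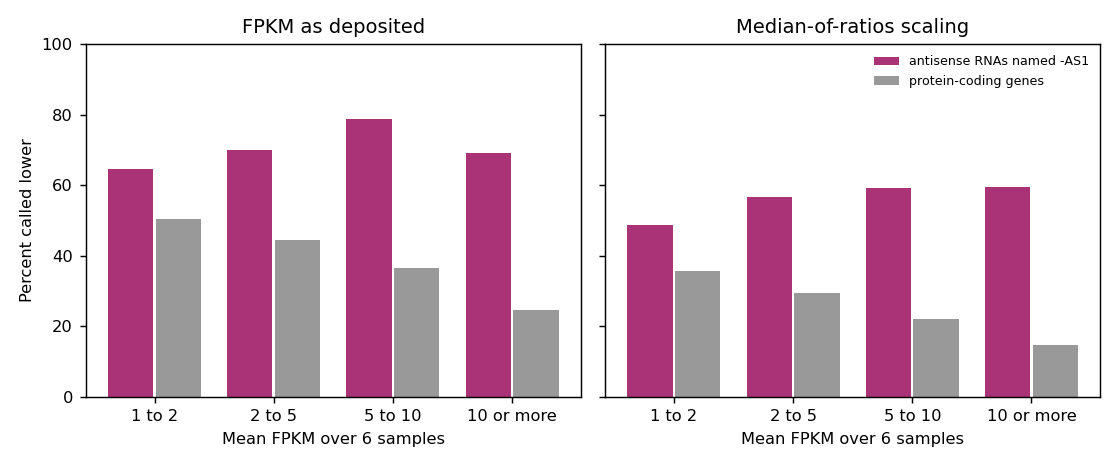
Percent of genes called lower (y axis) in 4 bands of mean FPKM (x axis) for the antisense RNAs and for protein-coding genes, on the deposited scale (left) and after median-of-ratios scaling (right). The bar of the antisense RNAs is the taller in every band, by the most at 10 FPKM or more (69.0% against 24.7% on the left).

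The most abundant antisense RNA did not pass the test. LRRC75A-AS1, now named SNHG29, is a host of small nucleolar RNAs at chr17:16438822-16478678 (hg38, plus strand). It measured 206.5, 257.8 and 211.8 FPKM in the control samples and 308.5, 210.1 and 183.7 FPKM in the mimic samples. The groups overlapped, with mimic sample 1 the highest of all, and the log2 fold change was 0.03 (SE 0.21, adjusted p = 0.929, limma). LRRC75A, its sense gene, had 3.40 ± 0.59 FPKM in controls and 1.38 ± 0.08 FPKM in mimics (SD, n = 3) and fell by 1.05 on the log2 scale, a call lost under quantile normalization (-0.39).

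Of the next 9 by level, 8 fell. IGFL2-AS1, an RNA beside a gene of the IGF-like family at chr19:46189166-46203083 (minus strand), measured 175.3, 119.6 and 151.0 FPKM in controls and 71.0, 56.7 and 54.1 FPKM in mimics. RUSC1-AS1 measured 83.8, 64.0 and 72.2 FPKM in controls and 40.2, 32.1 and 26.8 FPKM in mimics. Every mimic sample of both RNAs was below every control sample, with log2 fold changes of -1.28 (SE 0.18) and -1.15 (SE 0.18). IGFL2 itself was nearly silent, at no more than 0.18 FPKM in any control sample and listed at 0 in the mimic samples.

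OIP5-AS1, the conserved cytoplasmic RNA also called cyrano, lies at chr15:41283990-41309737 on the plus strand. Its values were 54.7, 57.7 and 52.3 FPKM in controls and 25.6, 27.6 and 22.4 FPKM in mimics. The groups stood well apart, with a log2 fold change of -1.11 (SE 0.13, adjusted p = 0.000304, limma). OIP5, which encodes a centromere protein, was at 13.7 ± 1.56 FPKM in controls and 14.1 ± 3.06 FPKM in mimics (SD, n = 3) and was not called, though it was called higher when corrected for GC content and length (0.45). The RNA was thus above its sense gene in both groups, by less in the mimic samples.

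NUP50-AS1 (now NUP50-DT), which starts 60 bases from the nuclear pore gene NUP50, measured 57.9, 55.8 and 50.5 FPKM in controls and 25.1, 22.6 and 26.2 FPKM in mimics. NNT-AS1, head to head with the mitochondrial transhydrogenase gene NNT, measured 35.5, 34.3 and 33.9 FPKM in controls and 15.8, 21.1 and 17.1 FPKM in mimics. Both fell with no overlap, by 1.13 and 0.94 on the log2 scale. NUP50 itself went from 21.5 ± 2.79 to 16.3 ± 1.19 FPKM and NNT from 28.6 ± 4.94 to 28.5 ± 6.48 FPKM (SD, n = 3), and neither was called. Corrected for GC content and length NNT was called higher (0.51), and NUP50 was called lower without control sample 3 (-0.49) or after rescaling FPKM without the mitochondrially encoded genes (-0.36). DLGAP1-AS1 fell by 0.99 on the log2 scale, from 32.6 ± 3.80 to 16.1 ± 1.26 FPKM (SD, n = 3), beside a sense gene that did not reach 0.1 FPKM.

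Another pair of abundant RNAs lay close to the threshold. FGD5-AS1 went from 40.3 ± 3.68 to 29.9 ± 3.41 FPKM (SD, n = 3) and was called lower with a log2 fold change of -0.43, but not after median-of-ratios scaling (-0.11) or when control sample 1 or 2 or mimic sample 2 or 3 was left out (adjusted p = 0.0726 to 0.125, limma). FGD5 is listed at 0 in all 6 samples. PITPNA-AS1, with 69.9% of its exon bases under exons of PITPNA, had a log2 fold change of -0.36 (adjusted p = 0.0522, limma) and was not called. Corrected for GC content and length it was called higher (0.43). It was called lower after quantile normalization (-0.29) or after rescaling FPKM without the mitochondrially encoded genes (-0.34).

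The largest fall among called antisense RNAs left a mimic mean of 0.0205 of the control mean. IDI2-AS1, at chr10:1022666-1044201 on the plus strand, overlaps a gene of isoprenoid synthesis. Of its exon bases 57.7% lie under exons of the other strand, 7.29% under those of IDI2, and the strand setting is not known. It measured 7.48, 13.8 and 13.5 FPKM in controls and 0.112, 0.140 and 0.460 FPKM in mimics. Every mimic value was far below the lowest control value, and the log2 fold change was -4.02 (SE 0.27, adjusted p = 4.02e-05, limma). IDI2-AS1 passed the rule on the mean through the control group only, which favoured a fall. IDI2 did not reach 0.2 FPKM in any sample.

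ADIRF-AS1, at chr10:86965345-86971311 on the minus strand, lies opposite a gene of adipocyte regulation. It measured 17.8, 16.2 and 13.6 FPKM in controls and 1.37, 2.12 and 2.44 FPKM in mimics. The groups were far apart (log2 fold change -2.74, SE 0.20), while ADIRF stayed at 0.93 ± 0.49 FPKM in controls and 0.92 ± 0.27 FPKM in mimics (SD, n = 3).

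INTS6-AS1, opposite a subunit of the Integrator complex that cleaves nascent RNA, measured 5.04, 4.54 and 4.86 FPKM in controls and 0.754, 0.772 and 0.367 FPKM in mimics. The fall was 2.25 on the log2 scale with no overlap, and INTS6 was not called (-0.32), though it was called higher when corrected for GC content and length (0.46). SLC9A3-AS1, opposite a sodium-proton exchanger gene, went from 55.3 ± 8.48 to 11.7 ± 0.99 FPKM (SD, n = 3). Its mimic samples were all far below its control samples.

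In 3 of the pairs with the largest falls the sense gene fell as well. PARD6G-AS1 and PARD6G, a cell polarity gene, fell by 2.60 and 2.02. MELTF-AS1 and MELTF, a transferrin family gene, fell by 2.30 and 0.98. TM4SF1-AS1 and TM4SF1, a tetraspanin-like surface protein at 562.6 ± 50.1 FPKM in controls (SD, n = 3), fell by 2.21 and 0.75. In each of these pairs the antisense RNA had the more negative value, which the choice of antisense RNAs by the size of their fall favoured.

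**Figure D3:**
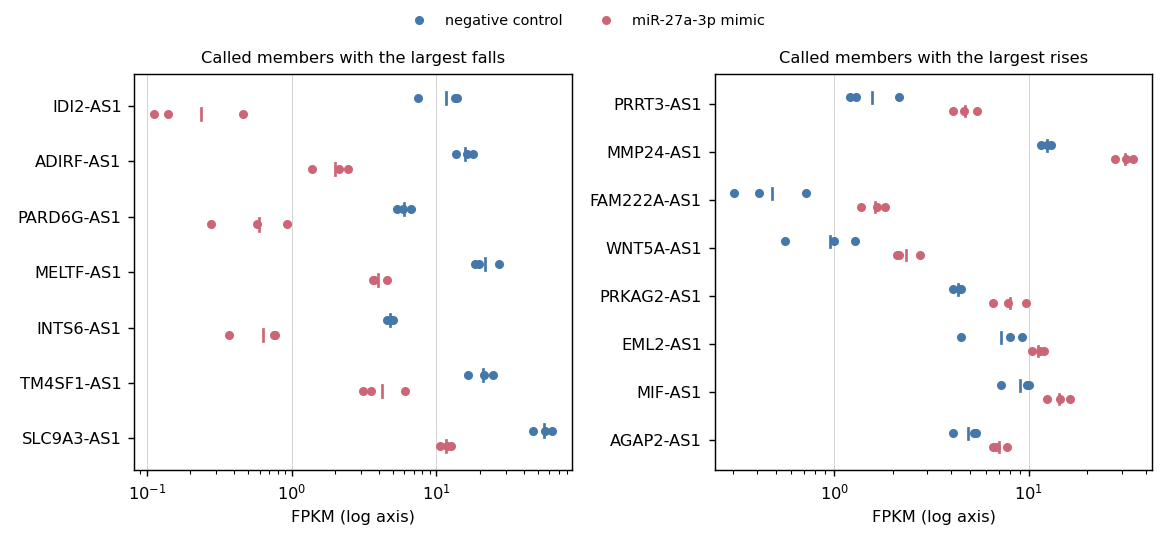
FPKM per sample (x axis, log scale) of 7 called antisense RNAs with the largest falls (left) and the 8 with the largest rises (right), each point 1 sample and each bar the group mean. Control and mimic points are separate in every row, from IDI2-AS1 (11.6 against 0.24 FPKM on average) to AGAP2-AS1 (4.88 against 7.02 FPKM).

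Only 9 of the 267 antisense RNAs were called higher on the deposited scale. MMP24-AS1, at chr20:35201745-35278131 on the minus strand, is annotated as protein-coding and now named MMP24OS, since its transcript encodes a small protein. It measured 13.1, 12.4 and 11.6 FPKM in controls and 27.8, 31.8 and 34.2 FPKM in mimics. The rise (log2 fold change 1.30, SE 0.13) was shared by MMP24, a membrane-bound metalloproteinase gene, at 1.12 ± 0.17 FPKM in controls and 4.63 ± 0.89 FPKM in mimics (SD, n = 3). MIF-AS1 and the cytokine gene MIF also rose together, by 0.66 and 0.85 on the log2 scale. MIF-AS1 went from 8.99 ± 1.58 to 14.4 ± 1.93 FPKM and MIF from 313.1 ± 49.4 to 572.2 ± 159.3 FPKM (SD, n = 3). In MIF-AS1, 46.5% of exon bases lie under MIF exons, and without a known strand setting their reads cannot be told apart.

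PRRT3-AS1, FAM222A-AS1 and PRKAG2-AS1 rose beside sense genes that were below 1 FPKM or not called. PRRT3-AS1 measured 1.21, 2.16 and 1.30 FPKM in controls and 5.42, 4.63 and 4.05 FPKM in mimics, beside PRRT3 at 0.58 ± 0.03 and 0.44 ± 0.09 FPKM (SD, n = 3). FAM222A-AS1 measured 0.412, 0.307 and 0.715 FPKM in controls and 1.82, 1.66 and 1.37 FPKM in mimics, and FAM222A averaged 1.10 FPKM in controls and 1.30 FPKM in mimics. PRKAG2-AS1, head to head with the gene of an AMP-activated kinase subunit, measured 4.07, 4.42 and 4.50 FPKM in controls and 6.58, 7.81 and 9.63 FPKM in mimics. None of these 3 overlapped between groups, and their log2 fold changes were 1.36, 1.13 and 0.80. After quantile normalization FAM222A (0.98) and PRKAG2 (0.60) were called higher as well. Smaller rises were called for EML2-AS1 (0.66), AGAP2-AS1 (0.49) and RNASEH1-AS1 (0.45), the last outside the naming rule and beside a sense gene, RNASEH1, that was called higher too (0.58). The call of EML2-AS1 was lost without control sample 2 or 3 or any 1 mimic sample (adjusted p = 0.0573 to 0.130, limma), and that of AGAP2-AS1 without control sample 3 (0.0827) or mimic sample 1 (0.0649). In EML2-AS1, 95.0% of exon bases lie under EML2 exons, and in AGAP2-AS1 57.7% lie under AGAP2 exons.

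Lower calls prevailed in every position of an antisense RNA relative to its sense gene. Pairs were called head to head where the 5′ ends lay within 1000 bases on opposite strands. Of 102 such RNAs, 74 were called lower and 2 higher, with a median of -0.80. Of 156 that overlapped in another way, 105 were called lower and 7 higher, with a median of -0.86. A further 6, which neither started head to head nor overlapped, were all called lower. Lower calls also prevailed in each of the 3 large annotated classes, with 132 of 186 genes of the antisense biotype, 23 of 34 intergenic RNAs and 26 of 34 processed transcripts.

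The share of exon bases that lie under exons of the other strand matters because the strand setting of the counting is not given. Of 59 antisense RNAs with no such base, 40 were called lower and 2 higher, with a median of -0.77. Of 129 with up to 20%, 101 were called lower and 3 higher, with a median of -0.96. Of 78 with more than 20%, 46 were called lower and 4 higher, with a median of -0.72. The part of opposite-strand reads in these values was not tested.

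The sense genes were called in shares close to those of all tested genes, 35.3% lower and 13.4% higher. Of the 224 tested, 79 were called lower, 30 higher and 115 were not called, with a median log2 fold change of -0.21. After median-of-ratios scaling 54 were called lower and 60 higher, and the median turned to 0.10. In 175 of the 224 pairs the antisense RNA had the more negative log2 fold change, and the median difference (antisense minus sense) was -0.58. In the control samples the antisense RNA had the higher mean FPKM in 48 of the 224 pairs, and in the mimic samples in 32.

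Pairs fell into all combinations of calls. Both partners were called lower in 62 pairs, and both higher in 3. The antisense RNA was called lower beside a sense gene that was not called in 80 pairs, the most frequent combination. It was called lower beside a sense gene called higher in 17 pairs, and the reverse occurred in 1 pair. Those 17 were of 159 pairs with a lower antisense RNA, a smaller share than the 30 higher among all 224 sense genes. Whether the calls of the partners depend on each other was not tested. Across the 224 pairs the log2 fold changes had a Pearson correlation of 0.25 and a Spearman correlation of 0.23, a description across genes that share the same 6 libraries. In the 67 pairs that share no exon base, the median difference was -0.81 and the Pearson correlation 0.24. In the 46 pairs with over 20% shared, these were -0.29 and 0.34.

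**Figure D4:**
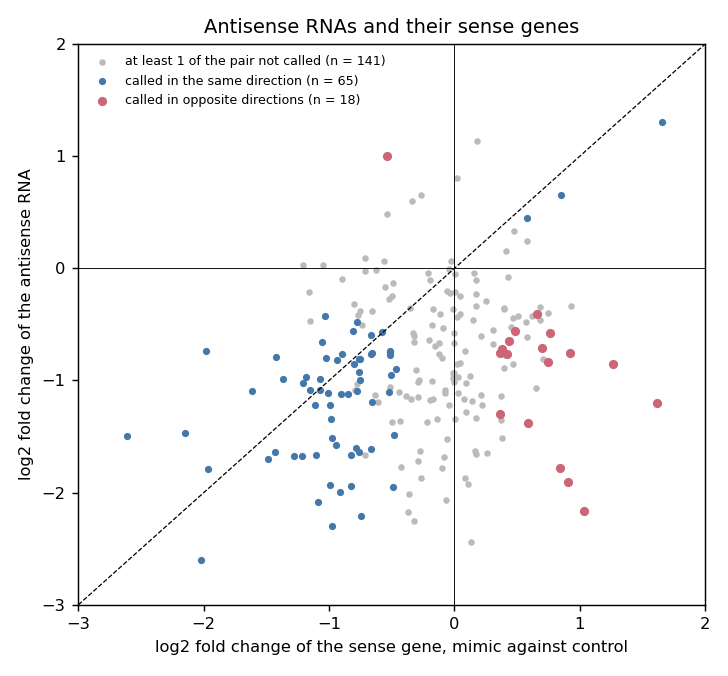
Log2 fold change (mimic against control) of each antisense RNA (y axis) against that of its sense gene (x axis) for the 224 pairs with both tested, coloured by the calls of the pair. The broken line marks equal change, and 175 points lie below it, with the 17 pairs of a lower antisense RNA and a higher sense gene at the lower right.

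The pairs called in opposite directions are a description, since the calls chose them. An exact two-sided permutation test of a ratio with 3 against 3 samples cannot go below p = 0.1, the value each of them gave. RRM1 encodes the large subunit of ribonucleotide reductase, which makes DNA precursors. RRM1-AS1 (chr11:4137116-4138257, minus strand) measured 4.41, 2.18 and 5.11 FPKM in controls and 0.289, 0.526 and 0.510 FPKM in mimics. RRM1 measured 128.6, 146.9 and 122.3 FPKM in controls and 291.7, 263.6 and 257.3 FPKM in mimics. Neither overlapped between groups, and the changes were -2.17 and 1.03 on the log2 scale.

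COX10 and MRPL23 are nuclear genes of mitochondrial proteins, an enzyme of haem A synthesis and a ribosomal protein. COX10-AS1 (now COX10-DT, chr17:13756478-14069495, minus strand) starts 1 base from COX10. It measured 19.3, 13.8 and 14.4 FPKM in controls and 3.67, 4.89 and 3.07 FPKM in mimics, while COX10 went from 4.82 ± 0.71 to 9.60 ± 2.26 FPKM (SD, n = 3). The RNA was the higher of the pair in every control sample and the lower in every mimic sample. MRPL23-AS1 fell by 1.78 and MRPL23 rose by 0.84 on the log2 scale, the latter call being lost without control sample 3 (adjusted p = 0.0586, limma).

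FBXL19 encodes an F-box protein that binds CpG islands. FBXL19-AS1 (chr16:30919319-30923269, minus strand) measured 9.72, 8.71 and 10.95 FPKM in controls and 3.61, 4.76 and 3.64 FPKM in mimics. FBXL19 measured 3.76, 3.69 and 3.33 FPKM in controls and 12.8, 10.8 and 12.7 FPKM in mimics. As for COX10, the order of the partners differed between the groups. On the log2 scale the antisense to sense ratio lay between 1.13 and 1.58 in the controls and between -1.69 and -1.10 in the mimics.

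GMDS-AS1 and KCNK15-AS1 also start close to their sense genes, of fucose synthesis and of a potassium channel, and fell by 1.30 and 1.38 while those rose by 0.37 and 0.59. The call of GMDS was lost without any 1 control sample or without mimic sample 2 or 3 (adjusted p = 0.0617 to 0.139, limma). PLS3-AS1 fell by 0.76 and PLS3, an actin-bundling protein gene, rose by 0.92, and the call of PLS3-AS1 was lost under median-of-ratios scaling (adjusted p = 0.0666, limma). WNT5A-AS1 was the reverse. It measured 1.28, 1.00 and 0.561 FPKM in controls and 2.10, 2.76 and 2.15 FPKM in mimics, while the secreted ligand gene WNT5A measured 19.9, 16.9 and 16.5 FPKM in controls and 11.5, 14.3 and 10.7 FPKM in mimics. WNT5A (log2 fold change -0.54) was not called under median-of-ratios scaling (-0.22) or without control sample 1 or mimic sample 3 (adjusted p = 0.0780 and 0.0542, limma). After median-of-ratios scaling 24 pairs had a lower antisense RNA and a higher sense gene, and no pair the reverse. Those 24 were of 124 pairs with a lower antisense RNA, while 60 of all 224 sense genes were higher on that scale.

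**Figure D5:**
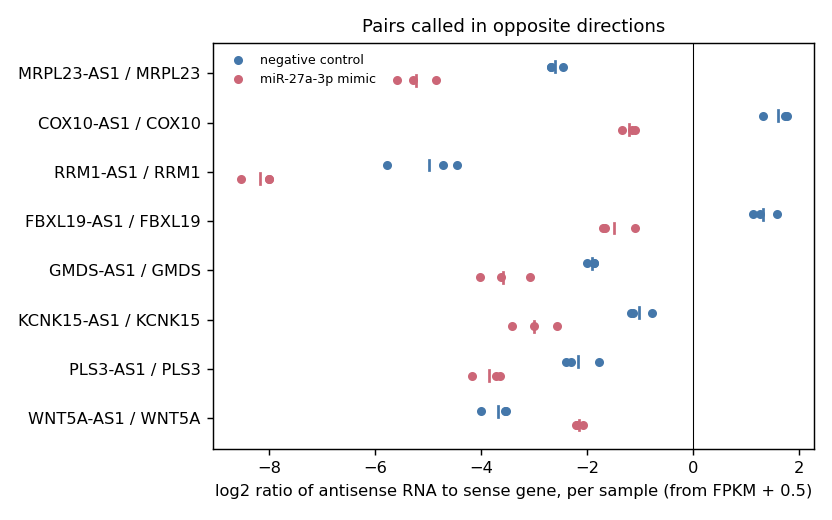
Log2 ratio of antisense RNA to sense gene in each sample (x axis, from FPKM + 0.5) for 8 pairs called in opposite directions, each point 1 sample and each bar the group mean. Points right of 0 mean more antisense than sense RNA: the controls of COX10-AS1 and FBXL19-AS1 lie there and their mimic samples do not.

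The antisense RNAs were also grouped by what their sense genes do. These groups were drawn up after the values had been seen and are only a description, to be read against 70.4% lower among all 267 antisense RNAs and 39.6% among all tested genes. After median-of-ratios scaling, with 55.4% of the 267 and 27.4% of all tested genes lower, the lower antisense RNAs numbered 8 of 9 (replication and repair), 12 of 14 (mitochondrial proteins), 12 of 26 (transcription factors), 6 of 8 (ZNF), 10 of 17 (RNA processing), 4 of 5 (ion pumps) and 5 of 10 (ligands and receptors). All 9 antisense RNAs of genes of DNA replication, repair and chromosome segregation were called lower (median -0.99), with 2 of the 9 sense genes lower and 1 higher. Besides RRM1-AS1 and OIP5-AS1 these include SPAG5-AS1 (-1.63, spindle), SMC2-AS1 (-0.97, condensin) and PRC1-AS1 (-0.76, cytokinesis). Of 14 antisense RNAs of genes of mitochondrial proteins, 13 were called lower (median -1.15), and of the 12 sense genes tested 3 were lower and 3 higher. NADK2-AS1 (-2.17), beside the mitochondrial NAD kinase gene, had the most negative value. All 4 at genes of proteasome subunits and assembly were called lower (PSMA3-AS1 -1.36, PSMD5-AS1 -1.19, PSMG3-AS1 -0.96 and PSMB8-AS1 -0.77), and none of those 4 sense genes was called. After median-of-ratios scaling, 3 of the 4 antisense RNAs were lower and 2 of the sense genes higher, and after quantile normalization PSMB8-AS1 (-0.38) was not called.

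Antisense RNAs of genes of transcription factors were also counted. Of 26 outside the ZNF names, 15 were called lower and none higher (median -0.62), and of 18 tested sense genes 7 were lower and 3 higher. GATA6-AS1, head to head with the endoderm factor GATA6, measured 4.04, 4.29 and 2.39 FPKM in controls and 0.537, 0.991 and 0.636 FPKM in mimics, with no overlap. GATA6 stayed at 8.19 ± 0.46 and 6.63 ± 0.58 FPKM (SD, n = 3) and was not called. Of 8 antisense RNAs of zinc finger genes named ZNF, 7 were called lower, and 4 of those 8 sense genes were lower and none higher. Of 17 at genes of RNA binding, processing and decay, 11 were lower and 1 higher, among them DICER1-AS1 (-2.08) beside the microRNA-processing enzyme gene DICER1 (-1.09). All 5 at genes of P-type ion pump subunits were called lower. Of 10 at genes of ligands and receptors, 6 were lower and 2 higher.

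Antisense RNAs often studied in cancer were mostly called lower as well. TTN-AS1, with 55.1% of its exon bases under exons of the muscle gene TTN, measured 13.4, 11.5 and 14.4 FPKM in controls and 3.65, 4.40 and 4.10 FPKM in mimics. TTN did not reach 0.3 FPKM in any sample. ZEB1-AS1, beside the gene of the mesenchymal repressor ZEB1, went from 10.3 ± 1.04 to 4.62 ± 0.92 FPKM (SD, n = 3). ZEB1 spread widely, from 4.66 to 8.40 FPKM in controls and from 1.80 to 6.17 FPKM in mimics, and was not called (log2 fold change -0.79, adjusted p = 0.119, limma), though it was without mimic sample 2 (-1.16, 0.0287).

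TMPO-AS1, beside a gene of the nuclear lamina, measured 6.33, 6.43 and 6.57 FPKM in controls and 2.52, 2.91 and 2.88 FPKM in mimics. All mimic samples lay well below the controls, while TMPO was not called (-0.08), and was called higher when corrected for GC content and length (0.44). MCM3AP-AS1 (-0.91), HIF1A-AS1 (-1.02) and FOXD3-AS1 (-0.95) were called lower. Quantile normalization ended the calls of HIF1A-AS1 (-0.20) and FOXD3-AS1 (-0.43), and the correction for GC content and length those of HIF1A-AS1 (-0.27) and MCM3AP-AS1 (-0.49). HIF1A, the hypoxia factor gene, was at 105.1 ± 9.91 and 88.2 ± 24.0 FPKM (SD, n = 3) and was not called. MAPKAPK5-AS1 (-0.57) was called lower, but not after median-of-ratios scaling (-0.27) or without any 1 control sample or mimic sample 2 or 3 (adjusted p = 0.0686 to 0.142, limma). SBF2-AS1 (-0.51, adjusted p = 0.0664, limma) was not called, though it was without control sample 1 (-0.68, 0.0277). EGFR-AS1, HNF4A-AS1, GAS6-AS1 and LOXL1-AS1, on the same list of studied RNAs, did not reach a mean of 1 FPKM.

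Other non-coding RNAs of host loci were set beside them. Of 603 tested genes of the antisense biotype with other names, 432 were called lower and 20 higher, with a median of -0.94. The shares called lower were 71.6% there and 70.4% among the 267 antisense RNAs, and whether these differ was not tested. Of 23 tested genes with names ending in -AS or -AS2 and higher, 14 were lower and 1 higher, with DLGAP1-AS2 at 52.4 ± 4.24 FPKM in controls and 6.15 ± 1.04 FPKM in mimics (SD, n = 3). KRT7-AS (-2.03) and TRPM2-AS (-1.49) were also called. Of 7 tested sense-intronic RNAs, with names ending in -IT1 and higher, 6 were called lower, among them ANKRD10-IT1 (-2.38), RERG-IT1 (-2.03) and N4BP2L2-IT2 (-1.92).

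Genes of nuclear RNA surveillance and transcription termination, which set the level of many antisense RNAs, were listed for comparison. Of 42 tested, 12 were called lower and 6 higher, with a median of -0.22, and after median-of-ratios scaling 6 were lower and 9 higher. The smallest p-values among them belonged to CPSF4, a polyadenylation factor (-1.33), PCF11, a termination factor (-1.11), and XRN1, a cytoplasmic exonuclease (-0.88). Next by p-value was INTS1, a gene of the Integrator complex, which was 1 of the 6 called higher (0.88). The shares were 28.6% lower and 14.3% higher on the deposited scale, against 39.6% and 12.0% of all tested genes. After median-of-ratios scaling they were 14.3% lower and 21.4% higher, against 27.4% and 26.9%.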

How the data were processed

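The deposited tables give FPKM per gene and sample, per the file headers, for 58174 genes. HISAT2, FastQC and hg38 are named by the submitters' processing notes. For the counting tool, strand setting and gene annotation, nothing is given in the sources used here. Members, lists and groups were chosen with earlier results of these data known. The 14439 genes averaging 1 FPKM or more were tested with limma 3.58.1 (R 4.3.3), trend and robust empirical Bayes on log2(FPKM + 0.5), with no further scaling, Benjamini-Hochberg adjustment and a threshold of 0.05. This scale understates changes of low genes. The step was tested on simulated data. Biotypes, exons and pair positions came from GENCODE 29 (266 of 267 matched), and sequences from RefSeq. Only 9.55% to 12.7% of low values were whole multiples of 1 fragment within 1%, and a test on counts was therefore left out, with no counting intervals. Named antisense RNAs were the 10 most abundant, the 8 called with the largest falls and rises, 8 called against their sense gene, a listed set of studied RNAs, and 3 neighbours on each side of the level limit. Some genes this rule takes are not reported here. Same-numbered samples of the groups correlated at 0.18, -0.05 and 0.22 in their deviations, and differently numbered ones at -0.28 to 0.13. The numbers were not taken as pairs, and whether they mark a shared batch is not known. Alternatives covered the pseudocount, filters, scaling, GC content and length, the block and each sample left out.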

Additional observations from a re-analysis of the deposited data

How the results depend on the processing

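The direction of the antisense RNAs, more lower than higher calls and a negative median, held under every alternative run. Medians moved by more than 1 SD between replicates (0.05) with a pseudocount of 0.1 (-0.99) or 1 (-0.74), a mean of at least 5 FPKM (-0.92), median-of-ratios scaling (-0.59), quantile normalization (-0.30) and the GC content and length correction (-0.55, also with the block), and without control sample 3 (-0.90). Counts moved by over 1.5 times with a mean of at least 5 FPKM, which leaves a smaller set (78 lower and 5 higher of 108). They also did under median-of-ratios scaling (14 higher), quantile normalization (104 lower, 25 higher) and the GC content and length correction (15 higher). That correction gave 146 antisense RNAs lower, against 3469 of all 14439 tested genes. Sense genes called higher numbered 60, 56 and 60 of 224 under median-of-ratios scaling, quantile normalization and the GC content and length correction. Of all 14439 tested genes, 3889, 3592 and 3607 were called higher, in the same order. The median of the sense genes was 0.10, -0.021 and 0.042, a change of sign in the first and last. The median difference of a pair was -0.79 and -0.48 with the pseudocounts of 0.1 and 1, -0.35 under quantile normalization and -0.63 without sample 3 of both groups. Leaving out 1 sample gave 164 to 187 antisense RNAs lower, 7 to 9 higher, and medians of -0.90 to -0.81. The 45 antisense RNAs of pairs that do not overlap had 29 lower, 0 higher (limma) and a median of -0.73, with 12 of 42 sense genes lower, 6 higher and a median difference of -0.81. Chosen after seeing the data, restriction to 59 with no opposite-strand exon base gave 40 lower, 2 higher and -0.77, to pairs with no shared exon base a difference of -0.81, and to 209 with at least 1 FPKM in both groups a median of -0.77. With the replicate number as a block 194 were called lower and 11 higher, and with the GC content and length correction added 16 higher, 63 sense genes higher and a sense median of 0.042. Whether the numbers pair the samples is not known, and nothing is read from this. Among named genes, the GC content and length correction turned PITPNA-AS1 to 0.43, NNT to 0.51, INTS6 to 0.46 and TMPO to 0.44, each called higher, the same with the block, and made OIP5 (0.45) a higher call. The causes were not tested. The count test was not run because whole reads were not recovered. Depth cannot be given per gene.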
